A study of Homo sapiens with 2 samples.

Results

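The p53 target genes are genes whose transcription is switched on by p53, a tumor suppressor protein. They were taken here as 9 named genes, CDKN1A, MDM2, ZMAT3, SESN1, FAS, TNFRSF10B, GDF15, RRM2B and XPC, found by gene name among the 50868 genes of the count table. All 9 had at least 10 reads over both libraries, which was the minimum for a gene to be compared, as did 15384 genes of the whole table.

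RNA-seq was performed on MOLM-13, a human line of acute myeloid leukemia (AML) with a KMT2A::MLLT3 fusion. There was 1 library from cells with the empty vector (Vector, the overexpression control) and 1 library from cells with the UNC5B construct (OE-UNC5B), which encodes a netrin receptor. According to the methods, the construct was a lentiviral plasmid with a CMV promoter, a FLAG tag, mCherry and a puromycin resistance gene, and cells were selected with puromycin. The study asked whether UNC5B changes adhesion and proliferation genes, and the p53 target genes bear on the proliferation side because they include brakes on the cell cycle. The libraries held 13715566 reads (Vector) and 15637137 reads (OE-UNC5B). UNC5B itself had 0 reads in either library, which allows at most 3 reads or 0.219 CPM (reads scaled to library size) and 0.192 CPM. The second library is therefore called the library labelled OE-UNC5B, and each direction below rests on the labels. With 1 library per group no test of the conditions was possible and no difference has a replicate check. The intervals given below are 95% Clopper-Pearson intervals of the reads, which cover counting error only, and reads are not all independent molecules.

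p53 is a transcription factor that is kept at a low level by MDM2, a ubiquitin ligase that marks it for degradation. DNA damage and other stresses release p53 from MDM2, and p53 then binds DNA as a tetramer at a site made of a pair of similar short repeats. The genes it induces stop the cell cycle (CDKN1A), repair DNA and supply nucleotides for repair (XPC, RRM2B), restrain growth signals (SESN1) and prepare the cell for death (FAS, TNFRSF10B), while MDM2 itself closes a feedback loop. These genes are a usual readout of drugs that act on MDM2.

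The sites that match the p53 consensus are shown because p53 acts on its targets through such sites. The consensus of a pair of 10-base repeats was searched in GRCh38 from 3000 bases before to 3000 bases after the start of the main transcript in GENCODE 44, with at most 3 bases between the repeats. The consensus reads the same on both strands, the CNNG core of each repeat had to be kept, and at most 3 other bases were allowed to differ. With at most 2 differing bases, 7 of the 9 genes held a site, compared with 17.1% of 20033 protein-coding genes searched. The best site of 5 of the genes is printed 5′ to 3′ on the strand of the gene, with the C and G of each core in capitals.
CDKN1A: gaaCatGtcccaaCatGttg
MDM2: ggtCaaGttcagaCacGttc
ZMAT3: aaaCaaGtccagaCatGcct
FAS: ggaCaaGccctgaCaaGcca
GDF15: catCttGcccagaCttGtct
The site of ZMAT3, at chr3:179070188-179070207 in intron 1, had 0 differing bases, which 0.25% of the genes searched had. The site of CDKN1A, at chr6:36676449-36676468, lies 2265 bases upstream of the transcript start and differed at 2 bases. The sites of MDM2 (chr12:68808923-68808942) and FAS (chr10:88991309-88991328) lie in intron 1, 746 and 511 bases after the start, and that of GDF15 (chr19:18385308-18385327) lies 850 bases upstream. RRM2B held a site with 1 differing base in intron 1, and TNFRSF10B one with 2 differing bases in intron 1. SESN1 had no match and XPC only one with 3 differing bases, which says only that these letters are not in this window. No binding of p53 was measured in these libraries, so a match is a description of the sequence.

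**Figure D1:**
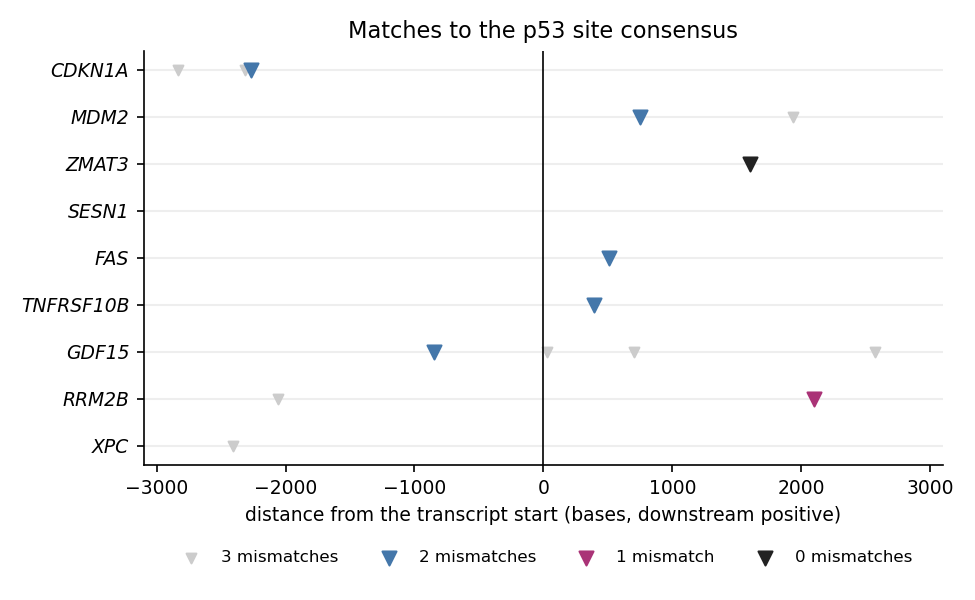
Matches to the p53 consensus around the start of each gene's main transcript (x axis, distance in bases, downstream positive), coloured by the number of differing bases. Of the 9 genes, 7 have a match with at most 2 differing bases, CDKN1A and GDF15 upstream of the start and the others downstream of it.

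The level of each gene was compared per length with the deposited FPKM, which are reads scaled to gene length and library size. CDKN1A, the cyclin-dependent kinase inhibitor p21, was the most abundant of the 9 genes, with 43.4 FPKM in Vector and 46.3 FPKM in the library labelled OE-UNC5B. TNFRSF10B and RRM2B followed, with 19.5 and 17.8 FPKM in Vector and 27.7 and 18.2 FPKM in the library labelled OE-UNC5B. XPC and SESN1 lay at 8.39 and 7.64 FPKM in Vector, with counting intervals that overlapped, 7.79 to 9.02 and 7.11 to 8.20. In the library labelled OE-UNC5B they were at 11.5 and 8.38 FPKM, and the intervals no longer overlapped. ZMAT3 (2.86 and 3.93 FPKM), MDM2 (1.51 and 2.01 FPKM) and FAS (0.860 and 0.911 FPKM) were low. GDF15 was the lowest, at 0.211 and 0.037 FPKM. The 9 genes had the same order in both libraries, so the p53 targets stayed in 1 ranking over a range from CDKN1A to a gene close to the floor. The order depends on the length used. The length behind the deposited FPKM was 26827 nt for MDM2, while its main transcript has 7490 nt, and per main transcript MDM2 stood before ZMAT3, with 5.41 against 3.82 CPM per kilobase in Vector. The other places in the order were the same with both lengths.

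**Figure D2:**
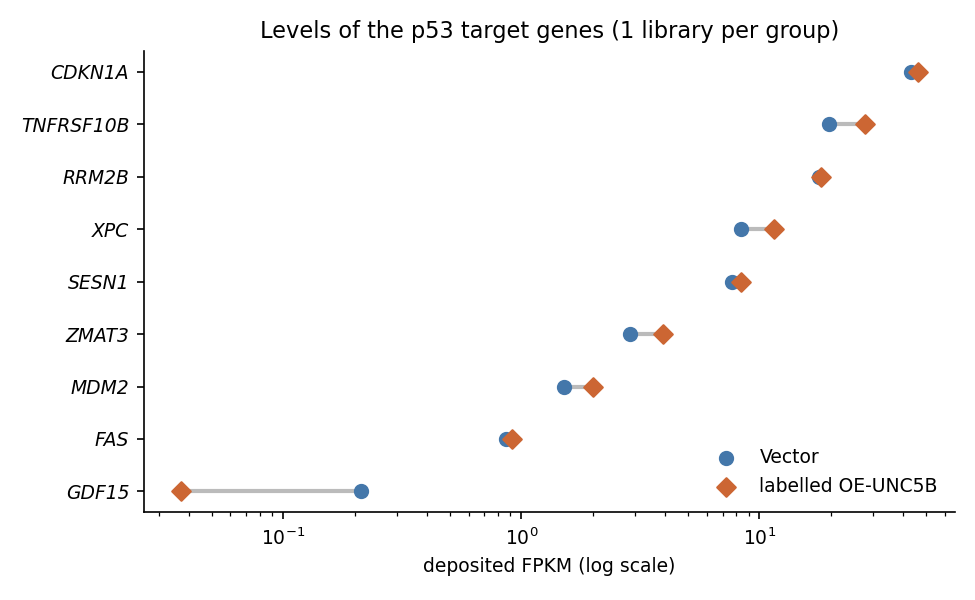
Deposited FPKM (x axis, log scale) of each p53 target gene in Vector (circles) and in the library labelled OE-UNC5B (diamonds), with 1 library per group and no error bars. CDKN1A is highest at 43.4 and 46.3 FPKM and GDF15 lowest at 0.211 and 0.037 FPKM, and the order of the genes is the same in both libraries.

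None of the 9 genes reached a 2-fold higher count in the library labelled OE-UNC5B, and 1, GDF15, was at least 2-fold lower. Over all tested genes, 5.15% were at least 2-fold higher and 4.79% at least 2-fold lower. When the reads also had to pass a Benjamini-Hochberg adjusted binomial test (exact), 0 members were higher, beside 3.39% of tested genes, and 1 was lower, beside 3.39%. The log2 fold change was above 0 for 7 members, beside 49.4% of tested genes, and below 0 for 2 members, beside 50.6%. TNFRSF10B, ZMAT3, XPC and MDM2 were higher by 1.29-fold to 1.37-fold with intervals above no change, while CDKN1A, SESN1, FAS and RRM2B had intervals that included no change. Thus 4 of 9 intervals lay above no change, where 25.2% of all tested genes did, and 1 of 9 lay below it, where 26.2% did. The median log2 fold change of the 9 genes was 0.09, beside -0.01 over all tested genes. This median rests on 1 gene in the middle of the order, and with at least 50 reads required, which leaves out GDF15, it was 0.22. On the deposited FPKM it was 0.39 with 0.1 added and 0.26 with 1 added, over the 7 members with at least 1 FPKM in either library. Cells with more RNA of a gene and a larger share of cells that express it cannot be told apart in these bulk samples.

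**Figure D3:**
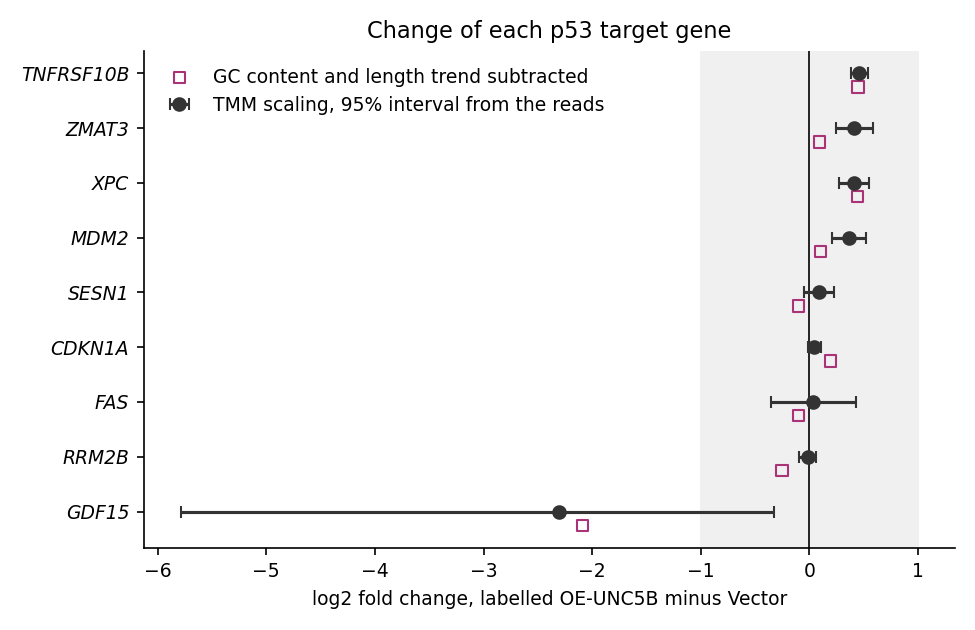
Log2 fold change of each p53 target gene, library labelled OE-UNC5B minus Vector, with 95% intervals from the reads (filled points) and after subtraction of a trend on GC content and transcript length (open squares). The grey band marks changes under 2-fold, and GDF15, with 10 and 2 reads, is the 1 gene outside it.

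The gene that stops the cell cycle was examined first. CDKN1A lies on chromosome 6 from 36676460 to 36687339 on the plus strand with a main transcript of 3 exons and 2117 nt. CDKN1A had 3716 reads in Vector against 4522 in the library labelled OE-UNC5B. The log2 fold change of CDKN1A was 0.05, with an interval of -0.02 to 0.11, so counting error alone leaves at most a 1.08-fold increase. Of all tested genes, 45.3% had a higher log2 fold change. After a smooth trend of fold change on GC content and transcript length was taken off (GC-length correction), the value was 0.20. The p21 transcript was thus abundant in both libraries and close to level between them.

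Cyclin-dependent kinases and another inhibitor of the p21 family were compared as partners of CDKN1A. CDKN1B, the inhibitor p27, had 1336 and 1700 reads, a log2 fold change of 0.11 (0.01 to 0.22). CDK2, a kinase bound by both inhibitors, had 676 and 656 reads, a log2 fold change of -0.28 (-0.44 to -0.12). The kinases CDK4 and CDK6 of the same list were named after their values were seen. CDK4 had 1816 and 2327 reads (0.12, 0.03 to 0.21), and CDK6 had 4273 and 7760 reads (0.62, 0.57 to 0.68). PCNA, the sliding clamp of DNA polymerase to which p21 also binds, was lower, with 8057 and 5458 reads and a log2 fold change of -0.80 (-0.85 to -0.75). Of the 12 tested genes of this list, which holds CDK inhibitors, cyclins and kinases of the G1 phase and PCNA, 1 was at least 2-fold higher and 1 at least 2-fold lower. CCND2, a D-type cyclin, was higher (479 and 1174 reads, 1.06 on the log2 scale), and CCNE2, the cyclin that drives CDK2 into S phase, was lower (1941 and 872 reads, -1.39). After GC-length correction, CCND2 no longer passed 2-fold, and 0 genes of the list were higher.

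The feedback arm was represented by MDM2. MDM2 lies on chromosome 12 from 68808172 to 68850686 on the plus strand and had 556 reads in Vector against 842 in the library labelled OE-UNC5B. This was a log2 fold change of 0.36 (0.21 to 0.52), which is 1.29-fold. The main transcript of MDM2 is long and poor in GC, with 7490 nt and 39.5% GC, compared with medians of 2712.5 nt and 48.4% GC over tested genes. After GC-length correction, the log2 fold change was 0.11. In addition, 1.60% of the exonic bases of MDM2 overlap exons of the carboxypeptidase M gene (also written CPM) on the opposite strand, which had 785 and 650 reads. With the reads of the 3 overlapping genes added, most of them reads of carboxypeptidase M, the value was -0.08. All reads of those genes were added, not only those in the shared bases, so this value cannot show how far the overlap affects MDM2. The counting is not stated to use strand, so reads in the shared bases cannot be assigned.

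The other genes that hold p53 in check differed by less than 2-fold between the libraries. MDM4, which blocks the activation domain of p53, had 155 and 203 reads, a log2 fold change of 0.15 (-0.16 to 0.46). PPM1D, a phosphatase that resets p53 signaling, had 418 and 580 reads (0.24, 0.05 to 0.42). USP7, which removes ubiquitin from MDM2 and p53, had 1815 and 2452 reads (0.20, 0.11 to 0.29). In the list of p53 and its regulators, 20 of 22 genes were tested, with 0 at least 2-fold higher, 1 at least 2-fold lower and a median of 0.10. The lower gene was TP73, of the p53 family, with 38 and 18 reads (-1.29, -2.21 to -0.47). TP63, of the same family, named after its value was seen, had 0 reads in both libraries.

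ZMAT3 encodes a zinc finger protein that binds RNA and acts on splicing and transcript stability downstream of p53. It lies on chromosome 3 from 179017223 to 179072279 on the minus strand and had 468 reads in Vector against 734 in the library labelled OE-UNC5B. This gave a log2 fold change of 0.41 (0.24 to 0.58), which is 1.33-fold. ZMAT3 has the longest main transcript of the 9 genes, 8936 nt with 38.2% GC. After GC-length correction, the log2 fold change was 0.09. ZMAT3 and MDM2 were thus higher on the read counts and nearly level after the correction.

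SESN1, a sestrin that restrains the growth kinase mTORC1, lies on chromosome 6 from 108986437 to 109094819 on the minus strand. It had 779 reads in Vector against 974 in the library labelled OE-UNC5B, a log2 fold change of 0.09 (-0.05 to 0.22). After GC-length correction it was -0.10, so its direction depends on the processing. Its paralog SESN2, which responds both to p53 and to ATF4, had 404 and 1451 reads, a log2 fold change of 1.61 (1.45 to 1.77). SESN3 had 75 and 66 reads (-0.42, -0.92 to 0.08). SESN2 was thus the 1 of 3 sestrins past 2-fold. Among the 15 genes of the sestrin and mTORC1 sensing list, 2 were at least 2-fold higher and 0 lower, with a median of 0.10. The other gene past 2-fold was DDIT4, an inhibitor of mTORC1 that is also a target of ATF4, with 481 and 3507 reads (2.63, 2.49 to 2.77).

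Among the 9 genes, TNFRSF10B and FAS encode death receptors. TNFRSF10B, the TRAIL receptor DR5, lies on chromosome 8 from 23020133 to 23069179 on the minus strand and had 2163 reads in Vector against 3501 in the library labelled OE-UNC5B. The log2 fold change was 0.46 (0.38 to 0.54), which is 1.37-fold, the highest value among the 9 genes. Of all tested genes, 17.7% had a higher value, and the value was 0.45 after GC-length correction. Of its exonic bases, 7.53% overlap exons of RHOBTB2 on the opposite strand, which had 1297 and 1121 reads, and with those reads added the value was 0.18. All RHOBTB2 reads were added, not only those in the shared bases, so this value cannot show how far the overlap affects TNFRSF10B. FAS, the receptor of FAS ligand, lies on chromosome 10 from 88990531 to 89015785 on the plus strand and had 101 and 122 reads. Its log2 fold change was 0.03 (-0.36 to 0.43), and this depth leaves room for changes between a 1.28-fold decrease and a 1.35-fold increase. After GC-length correction the value was -0.10, and the direction for FAS was not detectable at this depth. Exons of ACTA2 on the opposite strand and of STAMBPL1 on the same strand overlap 1.32% and 0.566% of the exonic bases of FAS, with 61 and 81 reads and 42 and 25 reads.

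The other TRAIL receptors and the genes that signal from them also differed by less than 2-fold. TNFRSF10A, the receptor DR4, had 475 and 549 reads (-0.03, -0.21 to 0.15). The decoy receptor TNFRSF10D, which lacks a working death domain, had 548 and 829 reads (0.36, 0.20 to 0.52), and the decoy TNFRSF10C had 8 reads in each library. These decoys were named after their values were seen. The ligand TNFSF10 (TRAIL) was lower, with 113 and 75 reads (-0.82, -1.27 to -0.39), and FASLG had 0 reads in both libraries. FADD, the adaptor of both receptors, had 544 and 595 reads (-0.11, -0.28 to 0.06), and CASP8, the protease it recruits, had 558 and 642 reads (-0.03, -0.20 to 0.13). CFLAR, which blocks CASP8 at the receptor, had 511 and 527 reads (-0.19, -0.37 to -0.01). Of the 14 tested genes of the death receptor list, 0 were at least 2-fold higher and 0 at least 2-fold lower, and the median was -0.15. The values of the list ran from -0.90 to 0.42.

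GDF15, a secreted stress cytokine of the TGF-β family, was the member closest to the floor. It lies on chromosome 19 from 18374731 to 18389176 on the plus strand, with a main transcript of 2 exons and 1200 nt. Its 10 reads in Vector against 2 in the library labelled OE-UNC5B were 0.729 and 0.128 CPM. The log2 fold change was -2.31 (-5.79 to -0.33), a 4.95-fold decrease with an interval from 1.26-fold to 55.3-fold. Only 0.787% of tested genes had a lower value, but low counts spread widely, as the plot of fold change against abundance shows. With an assumed coefficient of variation of 0.2 between cultures, GDF15 did not pass edgeR's exact test. Its receptor GFRAL had 0 reads in both libraries. In the list of the GDF15 receptor and family, 1 of 5 tested genes was at least 2-fold higher, TGFB3, with 9 and 28 reads (1.35, 0.28 to 2.67), named after its value was seen. The median of that list was 0.04, but it was -0.24 and -0.23 on FPKM, -0.28 with at least 50 reads and -0.11 after GC-length correction. On FPKM and with at least 50 reads, 0 genes of the list were at least 2-fold higher.

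**Figure D4:**
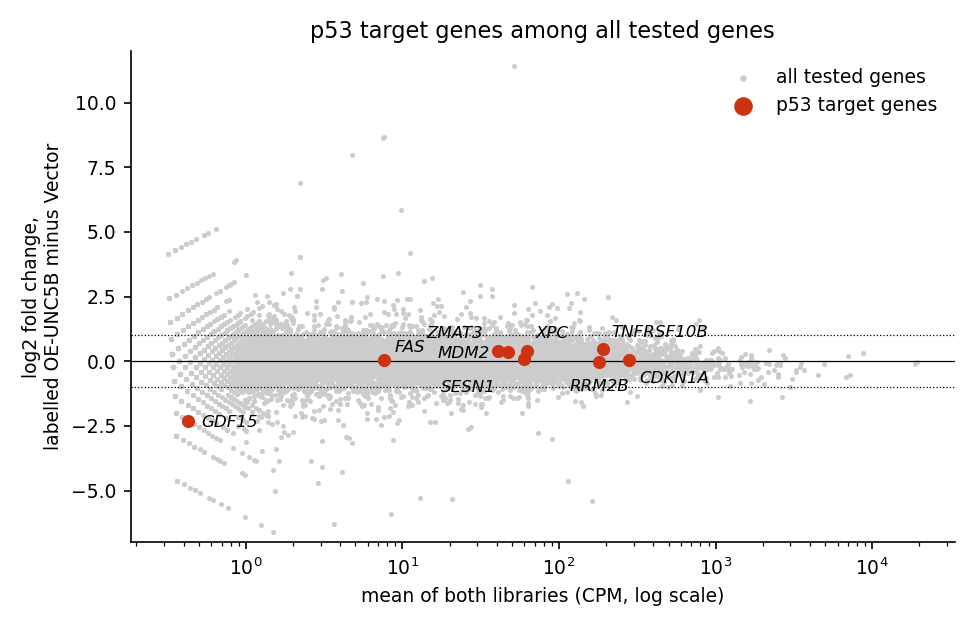
Log2 fold change (y axis, library labelled OE-UNC5B minus Vector) against the mean of both libraries in CPM (x axis, log scale) for the 15384 tested genes (grey) and the 9 p53 target genes (red), with dotted lines at 2-fold. Of the 9 genes, 8 lie between the dotted lines, and GDF15 lies at the low end of abundance, where counts spread widely.

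The DNA repair members were XPC and RRM2B. XPC, which recognizes bulky DNA lesions for nucleotide excision repair, lies on chromosome 3 from 14145147 to 14178783 on the minus strand. It had 722 reads in Vector against 1131 in the library labelled OE-UNC5B, a log2 fold change of 0.41 (0.28 to 0.55), which is 1.33-fold. After GC-length correction the value was 0.44. The genes that overlap its exons had 1 and 5 reads (AC093495.1) and 4 and 11 reads (AC090004.1). Over all settings tried, the log2 fold change of XPC lay between 0.41 and 0.46. Its value was thus the least dependent on the processing among the members that were higher.

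The partners of XPC had log2 fold changes below 0. RAD23B, which binds XPC, had 3370 and 3676 reads (-0.11, -0.18 to -0.04), and CETN2, the third subunit of the complex, had 155 and 128 reads (-0.51, -0.86 to -0.17). DDB2, a lesion sensor that is itself a p53 target, had 619 and 633 reads (-0.20, -0.37 to -0.04). In the nucleotide excision repair list, 0 of 17 genes were at least 2-fold higher and 1 at least 2-fold lower, with a median of -0.07. The lower gene was ERCC5, a repair nuclease, with 2128 and 1099 reads (-1.19). It shares exons with the readthrough gene BIVM-ERCC5, which had 0 and 1617 reads, and the reads of both genes together gave 0.12 (0.03 to 0.20), so ERCC5 alone is uncertain.

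RRM2B encodes the p53-induced small subunit of ribonucleotide reductase, the enzyme that makes deoxyribonucleotides. It lies on chromosome 8 from 102204502 to 102239118 on the minus strand and had 2440 reads in Vector against 2844 in the library labelled OE-UNC5B. The log2 fold change was -0.02 (-0.09 to 0.06). Scaling by library totals gave 0.03, and GC-length correction gave -0.25. Its main transcript has 35.1% GC. The large subunit RRM1 was lower, with 3581 and 2909 reads (-0.54, -0.61 to -0.47), and so was RRM2, the small subunit of dividing cells, with 3004 and 2148 reads (-0.72, -0.80 to -0.64). In the list of ribonucleotide reductase and nucleotide supply, 0 of 10 genes passed 2-fold in either direction, and the median was -0.55. Intervals lay below no change for 8 of them, beside 26.2% of all tested genes, and above it for 1, beside 25.2%. The p53-induced subunit was thus level on the counts beside lower values of both other subunits.

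The wider p53 programme was described with a list of further p53 target genes. Of 83 genes, 71 were tested, with 2 at least 2-fold higher and 2 at least 2-fold lower, and a median log2 fold change of -0.11, beside -0.01 over all tested genes. Intervals above no change were found for 16 of the 71 genes, beside 25.2% of all tested genes, and below it for 25, beside 26.2%. The higher genes were SESN2, described above, and KITLG, with 2 and 10 reads (1.83, -0.14 to 5.32), named after its value was seen. The lower genes were PMAIP1 and AIFM2. PMAIP1, the BH3-only protein NOXA, fell from 1449 to 604 reads, a log2 fold change of -1.50 (-1.64 to -1.36). AIFM2, an oxidoreductase, had 73 and 40 reads (-1.10, -1.70 to -0.53). BBC3, the BH3-only protein PUMA, was named after its value was seen and had 311 and 529 reads (0.53, 0.33 to 0.74). Both genes encode partners of BCL2 proteins in the same death pathway, and their values lay on opposite sides of no change.

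The genes that fall when p53 is active through p21 and the DREAM repressor complex were also compared, most of which act in S phase and mitosis. This list shares RRM2 with the ribonucleotide reductase list. All 26 genes were tested, 0 were at least 2-fold higher and 0 at least 2-fold lower, and the median was -0.35. Intervals lay below no change for 18 genes, beside 26.2% of all tested genes, and above it for 2, beside 25.2%. The values ran from -0.77 to 0.35. Most of these genes were thus lower by less than 2-fold while CDKN1A was level, and the part of p53 in their values was not tested.

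Genes of the ATF4 and CHOP programme, which answers amino acid shortage and endoplasmic reticulum stress, were included because some p53 targets, such as TNFRSF10B, GDF15, SESN2 and PMAIP1, are known targets of it as well. Of 19 tested genes, 13 were at least 2-fold higher and 0 lower, with a median of 1.27. ATF4 had 4993 and 10509 reads (0.84, 0.79 to 0.89) and DDIT3, which encodes CHOP, had 82 and 164 reads (0.76, 0.37 to 1.16). TRIB3 had 906 and 3186 reads (1.58, 1.47 to 1.69), and the highest values were those of STC2 (2.88), DDIT4 (2.63) and CTH (2.52). Of these 4 shared targets, SESN2 (1.61) and TNFRSF10B (0.46) had values above 0, and PMAIP1 (-1.50) and GDF15 (-2.31) had values below 0. The part of this programme in the values of the p53 targets was not tested.

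**Figure D5:**
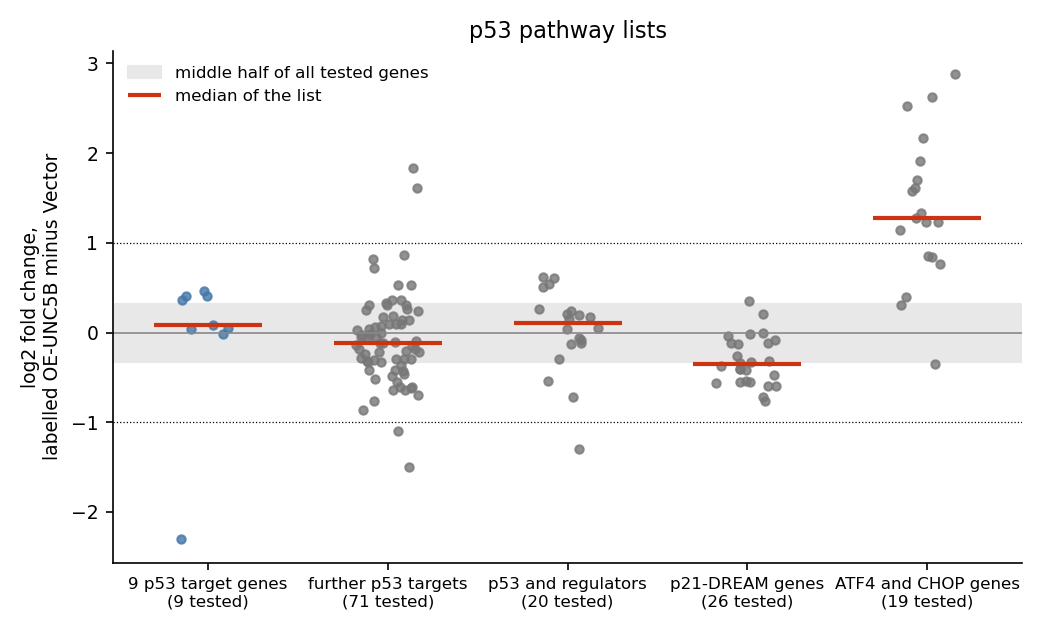
Log2 fold change (library labelled OE-UNC5B minus Vector) of each tested gene in the p53 pathway lists and the ATF4 and CHOP list, with the median of each list in red, the middle 50% of all tested genes in grey and dotted lines at 2-fold. The medians are 0.09 for the 9 p53 target genes, -0.11 for further targets, 0.10 for p53 and its regulators, -0.35 for the p21-DREAM genes and 1.27 for the ATF4 and CHOP genes.

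The labelled cell type was checked with its markers. All 15 myeloid markers had reads in both libraries, with summed levels of 9921 CPM in Vector and 5522 CPM in the library labelled OE-UNC5B. Among the 14 tested markers, 3 were at least 2-fold lower (LYZ, MPO and PRTN3) and 0 at least 2-fold higher. Intervals lay below no change for 7 and above it for 4 of them, MEIS1 (0.90), PTPRC (0.73), FLT3 (0.42) and CD33 (0.14), and the median was -0.07. Over all tested genes, 26.2% of intervals lay below no change and 25.2% above it. Of 10 markers per list, 7 endothelial, 4 fibroblast, 8 erythroid and megakaryocytic, 3 lymphoid and 4 HEK293 ones had 0 reads in both libraries. Among them were CDH5 and KDR, DCN and PDGFRA, ALAS2 and KLF1, CD2 and MS4A1, and EPCAM and KRT8, in that order. The 10 fibroblast markers had 143 and 19 reads together, and 3 of 3 tested ones were at least 2-fold lower. Most of these reads came from COL3A1, a fibrillar collagen, with 108 and 6 reads (-4.30, -5.88 to -3.24). The summed levels of the erythroid and megakaryocytic list (1.17 and 0.640 CPM) and of the HEK293 list (1.53 and 1.22 CPM) were low. The endothelial list had 119 and 94.4 CPM, nearly all from PECAM1, which myeloid cells also express, and the lymphoid list had 44.2 and 47.6 CPM. Of 4 tested lymphoid markers, 1 was at least 2-fold higher (1.35) and 0 lower. The 1 tested HEK293 marker was higher (1.02) and the 1 tested erythroid or megakaryocytic marker lower (-1.01), with intervals that included no change. The part of these differences in the values of the p53 target genes was not tested.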

How the data were processed

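RNA-seq of MOLM-13 cells was performed with 1 Vector and 1 OE-UNC5B library. For each gene the authors deposited raw counts of reads, together with FPKM. The submitters' processing notes name bcl2fastq 2.19, HISAT2 2.0.4, StringTie 1.3.0 and GRCh38. The counter, the gene annotation and whether strand was used are not given in the sources used here. The count to FPKM ratio between libraries lay from 1.139 to 1.140, as did the ratio of totals, so FPKM were scaled to counted reads.

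TMM factors (0.984 and 1.02) were computed in edgeR 4.0.16 under R 4.3.3. Tested here means compared: a gene needed 10 reads or more in the libraries together. Log2 fold changes used counts plus 0.5 reads, and calls were made at 2-fold or more. Intervals were 95% Clopper-Pearson (scipy 1.17.1). The procedure was tested on simulated data. edgeR's quasi-likelihood test could not be fitted with 1 library per group. Tested genes had medians of 269.5 and 316 reads.

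The members, lists and alternatives were chosen with earlier results of these data known. Named by rule were UNC5B, the members, MDM4, PPM1D, USP7, direct partners, overlapping genes, and per list the 3 largest rises and falls past 2-fold with at least 50 reads. Results for 1 further gene are not reported here. The other settings tried were DESeq2 1.42.0 size factors, scaling by totals, FPKM of at least 1 plus 0.1 or 1, 2 reads added, no filter, at least 50 reads, folds of 1.5 and 4, an exact binomial test on reads at an adjusted threshold of 0.05, an edgeR exact test in which a coefficient of variation of 0.2 or 0.4 was assumed, a trend on GC content and length subtracted (lowess, statsmodels 0.14.6, GENCODE 44, 98.8% of tested genes), and reads of overlapping genes added. Adding the reads of BIVM-ERCC5 to ERCC5 was chosen after seeing the data. Of the 50868 gene identifiers, 49659 were found in GENCODE 44. The file gives gene positions, and the exons, overlaps and sites come from GENCODE 44, both on GRCh38.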

Additional observations from a re-analysis of the deposited data

How the results depend on the processing

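No paired analysis was possible because each condition had 1 library, and for the same reason no replicate was left out. Unless a change follows from fewer or more genes compared, the cause was not tested.

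The number of members at least 2-fold higher was 0 under all alternatives run. The 1 lower member, GDF15, passed 2-fold in every setting that kept it, apart from edgeR's exact test with an assumed coefficient of variation of 0.2 or 0.4, where 0 members were lower. FPKM with a minimum of 1 and at least 50 reads left it out, also giving 0. The median of the members was 0.09, and was 0.39 and 0.26 with FPKM (0.1 and 1 added, 7 members) and 0.22 with at least 50 reads (8 members). The trend on GC content and length moved CDKN1A, MDM2, ZMAT3, SESN1 and RRM2B beyond their intervals from the reads, as given with each gene. Added reads of overlapping genes moved MDM2 and TNFRSF10B, but all reads of those genes were added, not only those in the shared bases. ERCC5 reversed from -1.19 to 0.12 when the reads of BIVM-ERCC5 were added.

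Over all genes, 792 were at least 2-fold higher and 737 lower. These were 392 and 281 with FPKM and 0.1 added, 165 and 130 with 1 added, 2886 and 3079 with no filter, 359 and 297 with at least 50 reads, 1991 and 1923 at 1.5-fold, 158 and 176 at 4-fold, 522 and 521 with the adjusted read test, 131 and 121 at a coefficient of variation of 0.2, and 7 and 8 at 0.4.

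In the lists, FPKM with either value added gave 1 higher and 1 lower among further p53 targets, 0 lower regulators and 0 higher in the GDF15 family list, and with 1 added 0 higher CDK list genes. No filter gave 2 lower regulators, 6 higher and 5 lower further targets, 4 lower CDK list genes and a CDK list median of -0.28. At least 50 reads gave 1 higher further target and 0 higher GDF15 family genes. The trend gave 0 higher CDK list genes. The GDF15 family median was -0.24 and -0.23 with FPKM, -0.28 with at least 50 reads and -0.11 with the trend. The p21-DREAM, ribonucleotide reductase and ATF4 and CHOP lists kept the sign of their medians under all these settings.

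Depth limits GDF15, with 10 and 2 reads, and FAS, with 101 and 122 reads.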

Other observations

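Genes with a match to the p53 consensus were also described over the whole table, without regard to whether they are known p53 targets. Of 11917 protein-coding genes that were tested, 315 had a match with at most 1 differing base within 3000 bases of the transcript start. Their median log2 fold change, library labelled OE-UNC5B minus Vector, was -0.02, beside -0.01 over the 11917 genes. Of the 315 genes, 3.81% were at least 2-fold higher and 4.44% at least 2-fold lower, beside 3.94% and 4.28%. The 29 genes with 0 differing bases, ZMAT3 among them, had a median of -0.06, with 0 higher and 2 lower. Matches with at most 2 differing bases were found in 38.6% of the 83 further p53 target genes, 13.6% of p53 and its regulators, 11.5% of the p21-DREAM genes and 15.0% of the ATF4 and CHOP list, beside 17.1% of all protein-coding genes searched. These shares are descriptions of the sequence, with no test.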
